A study of Mus musculus with 8 samples.

Results

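Adhesion G protein-coupled receptors (GPCRs) were described in cells sorted out of tumor-bearing mouse lungs by the protease activity at or near their surface. The family was taken as every row of the count table whose mouse symbol starts with Adgr followed by a subfamily letter and a number, which gave 27 genes in 8 subfamilies, out of 27179 genes in the table. The 8 RNA-seq libraries come from 4 samples of QZ1-hi cells and 4 samples of QZ1-lo cells. Both populations came from mice aged 18 to 22 weeks that were labelled C57BL/6 (C57BL/6J in the methods) with an Eml4-Alk translocation and were 11 to 12 weeks past tumor induction. The rearrangement was made in the lung by an adenovirus that delivers Cas9 with guide RNAs, so that normal and tumor cells are mixed in each lung. All mice received 4.5 nmol of QZ1, a quenched probe that becomes fluorescent and tags nearby cells once proteases cut its linker, and lungs were taken 2 h later. The sort kept live cells without CD45 or CD11b and split them by QZ1 signal against EpCAM, and no library here stands for healthy or uninjected mice. Which libraries share a mouse is not stated.

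Adhesion GPCRs are built from a long extracellular region that touches matrix or neighboring cells and from a membrane region shared with other GPCRs. Many are cut by their own autoproteolysis domain, and the stub left in the membrane can act as a tethered agonist that switches on G proteins when force or a ligand removes the extracellular part. Members are best known from synapses, myelinating glia, leukocytes, angiogenic vessels and, in lung, from the control of surfactant by alveolar cells.

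The libraries held 18380918 to 26847938 counts, of which 34.0 to 65.6% fell on mitochondrial genes or ribosomal RNA. Counts were scaled by TMM and are given as CPM, and 3 counts in a library, the floor used here, correspond to 0.0894 to 0.179 CPM. Floors cover counting error only. The populations differed in their cell markers. The summed level of 10 endothelial markers was 1003 to 2346 CPM in QZ1-hi and 70.1 to 307 CPM in QZ1-lo, and that of 8 fibroblast markers 1020 to 2076 and 30.9 to 238 CPM. For 6 epithelial markers the sums were 490 to 782 CPM in QZ1-hi and 1330 to 1817 CPM in QZ1-lo. All 10 endothelial markers and 6 of the 8 fibroblast markers were called higher, and all 6 epithelial markers were called lower. Of other non-epithelial lists, 4 of 4 mesothelial, 3 of 4 lymphatic and 3 of 7 pericyte markers were called higher. Of 6 smooth muscle markers 3 were called higher and 1 lower, and of 2 glial markers tested 1 was called lower. No leukocyte, macrophage, neutrophil, lymphocyte or erythroid marker was called in either direction. Over all genes tested, 9.88% were called higher and 8.21% lower. In bulk RNA, more cells of a type and more RNA per cell cannot be told apart.

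Of the 27 genes, 17 had enough counts to be tested. In the QZ1-hi population 9 of them rose and 2 fell at an adjusted p under 0.05 (edgeR's quasi-likelihood test, Benjamini-Hochberg adjustment over the 15583 genes tested), where 9.88% of all genes tested rose and 8.21% fell. The risers were all 4 genes of subfamily L (Adgrl1, Adgrl2, Adgrl3 and Adgrl4) with Adgrd1, Adgra2, Adgrg2, Adgrf5 and Adgre5. Adgrg6 and Adgrv1 fell. Of the 17 tested genes, 12 had no overlap between the 4 QZ1-hi and the 4 QZ1-lo libraries (the 11 called genes and Adgrb2), against 22.6% of all genes tested. The median log2 fold change of the 17 tested genes was 1.08, against 0.02 over all genes tested. Scaling by library size only moved the median of all genes to -0.44 and the calls over all genes from 1540 higher and 1280 lower to 882 and 2509. Of the family 6 genes then rose, as Adgre5 (0.56), Adgrf5 (0.68) and Adgrl2 (0.62) were no longer called, and 3 fell, with Adgrg1 the added gene. As a gene can pass the count filter through the population where it is high, these numbers describe the tested genes and not the family.

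**Figure D1:**
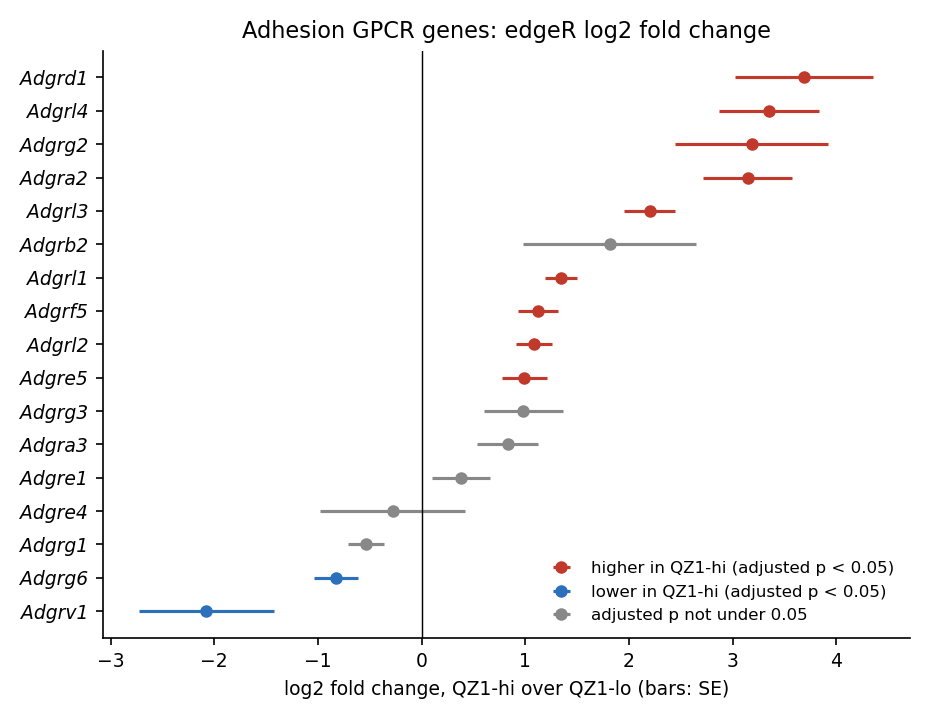
The log2 fold change of QZ1-hi over QZ1-lo is plotted for the 17 adhesion GPCR genes tested, with bars of 1 SE. Red genes were called higher, blue genes lower and gray genes neither, and the values run from 3.69 for Adgrd1 to -2.08 for Adgrv1.

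Subfamily L holds the latrophilins Adgrl1, Adgrl2 and Adgrl3, receptors that join cells across synapses by binding teneurins and FLRT proteins, and Adgrl4 (ELTD1), a receptor known from the endothelium of growing vessels. All 4 genes rose, with log2 fold changes from 1.08 to 3.35. The 250 bases upstream of the listed start are shown for the 3 of these genes that have a single start in the RefSeq promoter table (GRCm38.p6), and for Adgrg6 as a gene that fell. Capitals mark matches on either strand to the ETS core, searched as CCGGAA, or to the TATA box, searched as TATAAA. The GATA motif, searched as AGATAA on both strands, was in none of the 4 windows and in 9.99% of all windows. The TEAD motif GGAATG (12.6% of all windows) was also in none of them, nor was the AP-1 motif with the letters TGANTCA (6.75%). No motif match overlapped another.
Adgrl4, chr3:151437632-151437881, plus strand: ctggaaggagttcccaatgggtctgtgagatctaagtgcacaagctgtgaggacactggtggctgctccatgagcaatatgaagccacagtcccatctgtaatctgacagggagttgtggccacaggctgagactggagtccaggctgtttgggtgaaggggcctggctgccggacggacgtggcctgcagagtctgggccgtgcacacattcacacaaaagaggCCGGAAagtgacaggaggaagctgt
Adgrl1, chr8:83899848-83900097, plus strand: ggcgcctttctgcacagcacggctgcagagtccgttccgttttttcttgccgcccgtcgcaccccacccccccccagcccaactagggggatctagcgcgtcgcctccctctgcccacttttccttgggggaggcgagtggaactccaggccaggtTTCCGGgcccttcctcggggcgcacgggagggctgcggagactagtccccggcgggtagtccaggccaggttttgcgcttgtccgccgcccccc
Adgrl2, chr3:148954636-148954885, minus strand: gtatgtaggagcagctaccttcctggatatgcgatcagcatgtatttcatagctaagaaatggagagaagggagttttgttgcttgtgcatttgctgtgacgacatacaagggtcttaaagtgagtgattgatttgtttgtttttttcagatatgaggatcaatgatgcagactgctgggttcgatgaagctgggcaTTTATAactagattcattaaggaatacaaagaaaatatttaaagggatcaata
Adgrg6, chr10:14545037-14545286, minus strand: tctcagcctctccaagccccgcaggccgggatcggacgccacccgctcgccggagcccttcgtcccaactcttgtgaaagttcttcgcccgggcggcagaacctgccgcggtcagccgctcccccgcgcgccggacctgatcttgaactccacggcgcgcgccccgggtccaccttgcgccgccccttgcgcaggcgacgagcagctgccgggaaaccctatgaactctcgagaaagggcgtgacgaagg

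An ETS core lay 25 bases before the listed start of Adgrl4 and 94 bases before that of Adgrl1, and 12.0% of all 32851 promoter windows of this length hold such a match. Of the 6 called genes with a single listed start, 2 held an ETS core. Adgrf5 and Adgrl3, which rose and have 2 and 3 listed starts, held no ETS core in any of their windows. The windows of Adgrg2, which rose, and Adgrv1, which fell, are not shown and held no match to any of these motifs. Adgrl2 held TATAAA 53 bases before its listed start, as 12.4% of windows hold. The windows also differed in base composition, with 56.8% GC for Adgrl4, 68.8% for Adgrl1, 37.6% for Adgrl2 and 69.6% for Adgrg6, against a median of 52.4%. CpG pairs were at 0.26 of the number expected from base composition in Adgrl4, 0.39 in Adgrl2, 0.72 in Adgrl1 and 1.08 in Adgrg6. The windows not shown were at 0.73 for Adgrg2 and 0.43 for Adgrv1, and the median of all windows was 0.37. A match describes the letters only. The listed start of Adgrl2 lies inside the bounds of the gene. The bases just after the listed start were found in a GENCODE M21 transcript of the gene for Adgrl2 and Adgrg6. For Adgrl1 and Adgrl4, the genes with an ETS core, they were not found. The start used in these cells was not measured for any gene.

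Adgrl4 (Entrez Gene 170757, chr3:151437882-151545081) stood at 94.0, 65.5, 115 and 57.5 CPM in the QZ1-hi libraries and at 4.98, 5.33, 18.6 and 3.64 CPM in the QZ1-lo libraries. Every QZ1-hi library lay above every QZ1-lo library, and QZ1-lo replicate 3 stood apart from the other 3 QZ1-lo libraries. Its log2 fold change was 3.35 (adjusted p = 0.000858, SE 0.48), a 10.2-fold rise, and became 4.16 without QZ1-lo replicate 3. That library had the highest sum of the QZ1-lo libraries for the endothelial markers, 307 CPM against 137 CPM in the next, QZ1-lo replicate 2. It was also highest for the fibroblast, pericyte, smooth muscle, lymphatic, epithelial, alveolar type 2 and ciliated markers. The fibroblast and smooth muscle sums nearly equalled those of QZ1-lo replicate 2, at 238 against 236 CPM and 26.3 against 26.2 CPM. Set against 100 CPM of the summed endothelial markers, Adgrl4 was 4.91 to 6.38 CPM in QZ1-hi and 3.90 to 6.04 CPM in QZ1-lo, with overlap between the populations. Against the fibroblast markers it also overlapped, at 3.56 to 8.75 and 2.26 to 11.8 CPM. The part of either cell type in its rise was not tested.

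Adgrl3 (Entrez Gene 319387, chr5:81019085-81827825) was at 18.0, 18.6, 33.1 and 22.6 CPM in QZ1-hi and at 5.87, 5.29, 5.36 and 3.52 CPM in QZ1-lo, with a log2 fold change of 2.20 (adjusted p = 0.000278, SE 0.25). Adgrl1 (Entrez Gene 330814, chr8:83900098-83941954) had the tightest replicates of the family, at 20.4, 23.0, 18.8 and 19.7 CPM against 7.42, 8.75, 8.54 and 7.61 CPM. Its log2 fold change was 1.34 (adjusted p = 0.000301, SE 0.15). Adgrl2 (Entrez Gene 99633, chr3:148815586-148989096), the latrophilin with the most CPM per kb of exon, was at 80.5, 61.2, 85.6 and 67.6 CPM against 44.4, 26.2, 34.3 and 34.4 CPM, a log2 fold change of 1.08 (adjusted p = 0.00139, SE 0.17). The populations were separate for all 3 genes. Adgrl1, Adgrl2 and Adgrl3 share exonic positions with genes on the opposite strand, and the strand setting of the counting is not stated.

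The direction for Adgrl2 and Adgrl1 depended on the markers they were set against. Relative to the endothelial or the fibroblast markers, both genes were higher in QZ1-lo. Relative to the epithelial markers, both were higher in QZ1-hi, without overlap. Per 100 CPM of the epithelial markers, Adgrl2 was 8.92 to 16.1 CPM in QZ1-hi and 1.76 to 2.59 CPM in QZ1-lo. Adgrl1 was 2.61 to 4.02 CPM in QZ1-hi and 0.43 to 0.59 CPM in QZ1-lo. Per 100 CPM of the summed endothelial markers, Adgrl2 was 3.65 to 6.74 CPM in QZ1-hi and 11.2 to 49.0 CPM in QZ1-lo, without overlap. Adgrl1 was 0.80 to 2.24 CPM in QZ1-hi and 2.78 to 10.9 CPM in QZ1-lo on this scale, also without overlap, while Adgrl3 overlapped, at 1.02 to 2.25 and 1.74 to 6.23 CPM. Within libraries, the log2 ratio of Adgrl2 to Adgrl4 was 2.38 ± 1.08 (SD, n = 4) in QZ1-lo and -0.13 ± 0.28 (SD, n = 4) in QZ1-hi, a difference of -2.51 (two-sided p = 0.0286 by an exact permutation test, the smallest that 4 against 4 libraries allow, and 0.0508 after adjustment over 16 pairs). The log2 ratio of Adgrl1 to Adgrl4 changed by -2.27, with the same p values from the exact permutation test. The ratio of Adgrl1 to Adgrl2 did not separate the populations, with a difference of 0.24 (exact permutation test, two-sided p = 0.429). Of the 16 pairs of tested genes within a subfamily, 9 had ratios that did not overlap, each at the smallest unadjusted p, and none passed an adjusted p of 0.05. The share of such pairs among all genes was not computed, so the 9 only describe these pairs. Of single genes tested, 22.6% did not overlap. Among the 9 were Adgrg2 with Adgrg1 and with Adgrg6, and Adgrg2 had 7, 11, 10 and 1 counts in QZ1-lo. With a prior count of 0.5 in place of 2, 10 pairs did not overlap, and 10 passed. As all such pairs share the smallest p, their adjusted p depends only on how many there are.

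**Figure D2:**
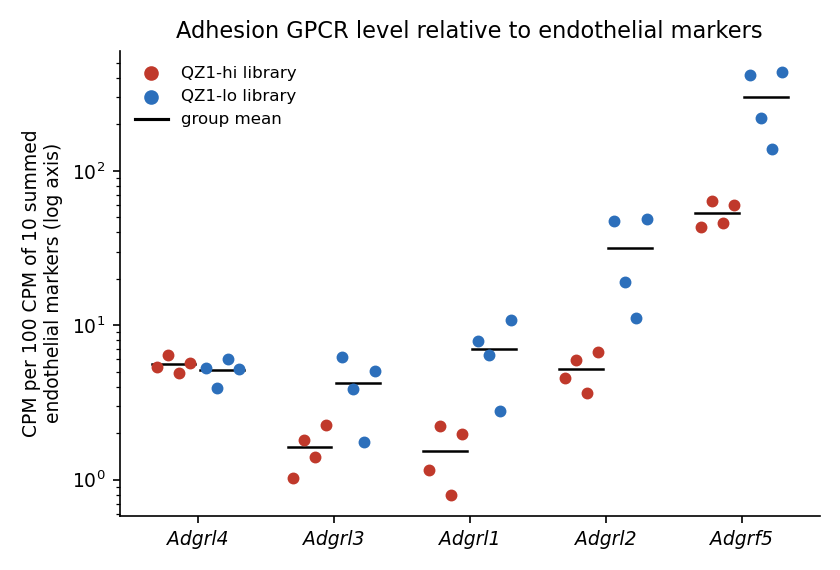
Levels of the subfamily L genes and of Adgrf5 are plotted on a log axis as CPM per 100 CPM of 10 summed endothelial markers, with 1 point per library and a black line at each group mean. Adgrl4 lay between 3.90 and 6.38 in all 8 libraries, while Adgrf5 lay between 43.5 and 63.5 in QZ1-hi and between 138 and 437 in QZ1-lo. Against the epithelial markers, which are not plotted, Adgrf5 was higher in QZ1-hi, at 95.1 to 202 against 20.1 to 23.4 in QZ1-lo.

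Adgrf5 (GPR116), which restrains surfactant in alveolar type 2 cells and is also made by lung endothelium, was the leading adhesion GPCR of these cells. Adgrf5 (Entrez Gene 224792, chr17:43360329-43459557) was at 768, 652, 1071 and 602 CPM in QZ1-hi and at 391, 298, 425 and 306 CPM in QZ1-lo. The populations did not overlap, and the log2 fold change was 1.12 (adjusted p = 0.00241, SE 0.20). It made up 53.5 to 57.8% of the summed CPM of the 27 genes in QZ1-hi and 44.4 to 50.6% in QZ1-lo. Of 7 alveolar type 2 markers 1 was called higher, and their sums overlapped between the populations (5632 to 10263 CPM in QZ1-hi and 4265 to 6673 CPM in QZ1-lo). Surfactant protein D (Sftpd), a proposed ligand of this receptor, was not called, at 453 ± 86.1 CPM in QZ1-hi and 585 ± 73.8 CPM in QZ1-lo (SD, n = 4 each). Adgrf5 lies in a cluster on chr17 with Adgrf1, Adgrf2 and Adgrf4, and these 3 neighbors had at most 20 counts in any library.

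Levels between genes were compared as CPM per kb of exon, with exon lengths from GENCODE M21. In QZ1-hi the order was Adgrf5 at 85.8 ± 23.3, Adgre5 at 39.8 ± 11.2, Adgrg1 at 18.8 ± 4.59, Adgrl4 at 18.1 ± 5.80 and Adgre1 at 11.1 ± 4.64 CPM per kb (SD, n = 4 each). Adgrg1 and Adgrl4 differed by less than their spread. In QZ1-lo the order was Adgrf5 at 39.4 ± 6.94, Adgrg1 at 27.2 ± 3.47, Adgre5 at 20.1 ± 4.98, Adgre1 at 8.56 ± 2.06 and Adgrg6 at 2.75 ± 0.56 CPM per kb (SD, n = 4 each). Adgrl4 was 8th in QZ1-lo, at 1.77 ± 1.53 CPM per kb (SD, n = 4).

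**Figure D3:**
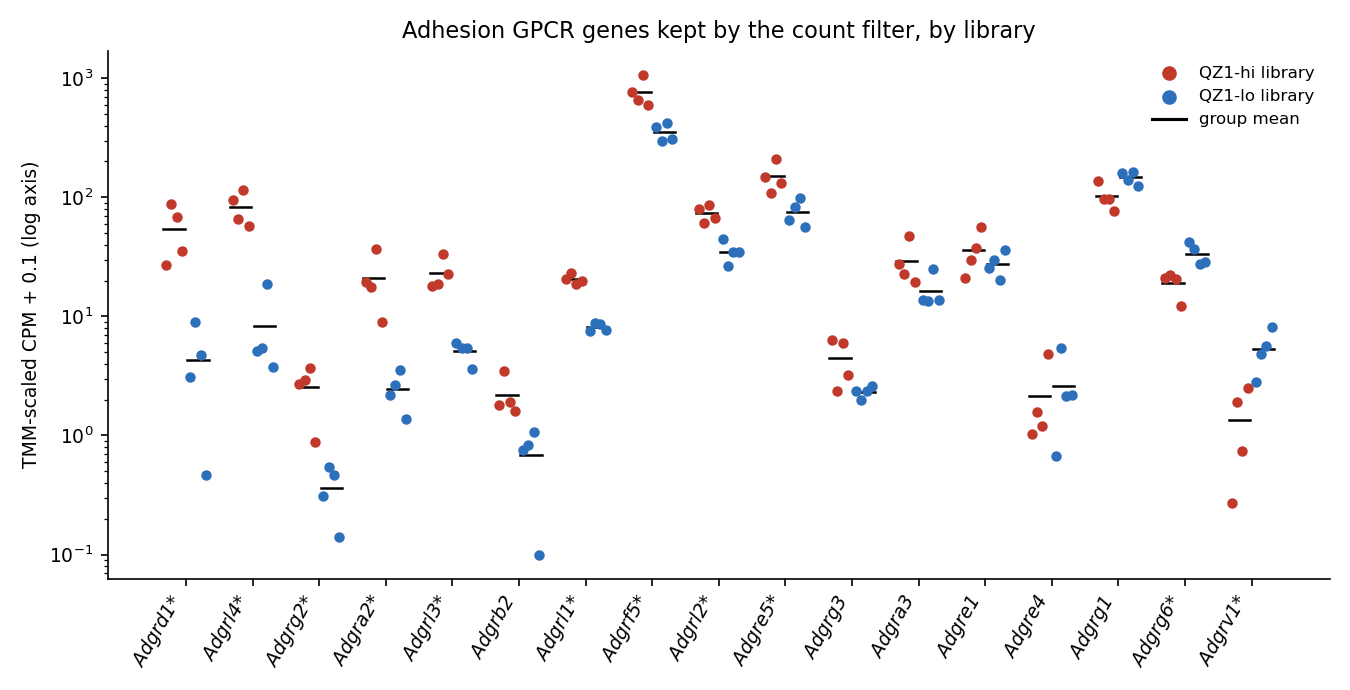
Each point is the TMM-scaled CPM of a library, plotted with 0.1 added on a log axis, for the 17 adhesion GPCR genes tested in order of log2 fold change. Red points are QZ1-hi and blue points QZ1-lo libraries, black lines are group means, and an asterisk marks the 11 called genes, in which red and blue do not overlap.

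The steepest rises outside subfamily L were in Adgrd1, Adgrg2 and Adgra2. Adgrd1 (GPR133), a receptor that raises cyclic AMP through Gs, had the largest log2 fold change of the family. Adgrd1 (Entrez Gene 243277, chr5:129096750-129204599) was at 26.9, 87.6, 68.2 and 35.0 CPM in QZ1-hi and at 3.01, 8.87, 4.67 and 0.37 CPM in QZ1-lo, with a log2 fold change of 3.69 (adjusted p = 0.00286, SE 0.66). QZ1-hi replicates 2 and 3 were the highest of their population. They were also highest for the summed fibroblast markers, with 1841 and 2076 CPM against 1075 and 1020 CPM in replicates 1 and 4. The same held for the pericyte and ciliated sums. The mesothelial sum was highest in replicate 2 of each population, at 268 CPM in QZ1-hi and 36.5 CPM in QZ1-lo. In QZ1-hi replicate 3 it was the lowest of its population, at 38.4 CPM. Per 100 CPM of the fibroblast markers, Adgrd1 was 2.51 to 4.76 CPM in QZ1-hi and 1.19 to 3.75 CPM in QZ1-lo, with overlap. Adgrd1 also overlapped against the endothelial markers, at 1.53 to 8.53 and 0.53 to 6.49 CPM, and the part of any of these cell types in its rise was not tested.

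Adgra2 (GPR124, also called tumor endothelial marker 5) is a partner of RECK in WNT7 signaling of brain vessels. Adgra2 (Entrez Gene 78560, chr8:27085520-27123436) was at 19.4, 17.6, 37.1 and 8.94 CPM in QZ1-hi and at 2.09, 2.56, 3.44 and 1.27 CPM in QZ1-lo, with a log2 fold change of 3.14 (adjusted p = 0.000680, SE 0.43). Its level overlapped between the populations when set against 100 CPM of the endothelial markers, at 0.89 to 1.72 CPM in QZ1-hi and 1.12 to 2.21 CPM in QZ1-lo, and likewise against the fibroblast markers, at 0.88 to 1.81 and 1.08 to 4.10 CPM. Its relative Adgra3 (GPR125) was higher on average, at 29.1 ± 12.4 CPM in QZ1-hi and 16.3 ± 5.58 CPM in QZ1-lo (SD, n = 4 each), and was not called (log2 fold change 0.83, SE 0.30, adjusted p = 0.0790), though it was in DESeq2 (adjusted p = 0.0388) and limma (adjusted p = 0.0276). The log2 ratio of Adgra2 to Adgra3 was -0.57 ± 0.36 (SD, n = 4) among QZ1-hi and -2.79 ± 0.42 (SD, n = 4) among QZ1-lo libraries, without overlap (exact permutation test, two-sided p = 0.0286, 0.0508 after adjustment).

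Adgrg2 (GPR64), best known from the efferent ducts and epididymis, was a gene of low counts, with 193 counts over the QZ1-hi libraries and 29 over the QZ1-lo libraries. Adgrg2 (Entrez Gene 237175, chrX:160390318-160498076) was at 2.58, 2.82, 3.58 and 0.77 CPM in QZ1-hi and at 0.21, 0.45, 0.36 and 0.04 CPM in QZ1-lo, with a log2 fold change of 3.18 (adjusted p = 0.0117, SE 0.74). The lowest value of QZ1-hi, in replicate 4, was still above the highest of QZ1-lo. Exons of Adgrg2, as those of Adgra2 and Adgrg6, overlap a gene model on the opposite strand.

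Adgrg1 and Adgrg6, also of subfamily G, stood on the other side. Adgrg6 (GPR126), which starts myelination in Schwann cells, fell from 41.8, 36.8, 27.2 and 28.7 CPM in QZ1-lo to 20.97, 22.3, 20.6 and 12.0 CPM in QZ1-hi (Entrez Gene 215798, chr10:14402583-14545723). Its log2 fold change was -0.83 (adjusted p = 0.0192, SE 0.21), and the call was lost without QZ1-lo replicate 1 (-0.70, adjusted p = 0.0613) or without QZ1-lo replicate 2 (-0.78, adjusted p = 0.0545). Per 100 CPM of the epithelial markers, Adgrg6 was 2.46 to 3.88 CPM in QZ1-hi and 1.4996 to 2.47 CPM in QZ1-lo, ranges that just overlapped, and the part of epithelial cells in its fall was not tested.

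Adgrg1 (GPR56), a collagen III receptor of the developing cortex, was at 136, 97.1, 96.9 and 76.6 CPM in QZ1-hi and at 161, 140, 164 and 125 CPM in QZ1-lo. QZ1-hi replicate 1 lay above the lowest QZ1-lo library, and the log2 fold change of -0.54 (adjusted p = 0.0530, SE 0.17) did not pass the threshold. DESeq2 gave -0.55 (adjusted p = 0.0199). Per 100 CPM of the epithelial markers, Adgrg1 was higher in QZ1-hi, at 14.2 to 18.2 CPM against 9.04 to 9.39 CPM in QZ1-lo, without overlap. The part of epithelial cells in its level was not tested. Adgrg3 (GPR97), its neighbor on chr8 and a granulocyte receptor, was at 4.38 ± 2.00 CPM in QZ1-hi and 2.22 ± 0.26 CPM in QZ1-lo (SD, n = 4 each) and was not called (log2 fold change 0.98, SE 0.38, adjusted p = 0.109).

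Adgrv1 (VLGR1), the longest adhesion GPCR and a component of the ankle links of hair cells that is mutated in Usher syndrome, also fell. Adgrv1 (Entrez Gene 110789, chr13:81095068-81633391) was at 0.17, 1.83, 0.64 and 2.38 CPM in QZ1-hi and at 2.71, 4.76, 5.54 and 8.02 CPM in QZ1-lo, with no overlap. Its log2 fold change was -2.08 (adjusted p = 0.0467, SE 0.65), from 92 counts in QZ1-hi and 557 in QZ1-lo. The call was lost in 6 of the 8 fits that left out a library, those without QZ1-hi replicate 1, 2 or 3 or QZ1-lo replicate 2, 3 or 4, with log2 fold changes of -2.35 to -1.70 and adjusted p values of 0.0538 to 0.121. All 6 ciliated cell markers were called lower in QZ1-hi, with sums of 69.9 to 201 CPM against 321 to 611 CPM in QZ1-lo. All 6 epithelial, 5 of 7 alveolar type 1 and 3 of 4 airway secretory markers were also called lower. Adgrv1 was highest in QZ1-lo replicate 4, where the ciliated sum was 401 CPM, below replicates 2 and 3 of QZ1-lo. Per 100 CPM of the epithelial markers, Adgrv1 overlapped, at 0.02 to 0.49 CPM in QZ1-hi and 0.16 to 0.60 CPM in QZ1-lo. The part of these cell types in its difference was not tested.

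Subfamily E holds receptors of leukocytes with EGF-like repeats. Adgre5 (CD97, Entrez Gene 26364, chr8:83723245-83741311) rose, at 148, 110, 208 and 133 CPM in QZ1-hi and 64.8, 82.3, 98.2 and 56.1 CPM in QZ1-lo, with a log2 fold change of 0.99 (adjusted p = 0.00874, SE 0.22). Exons of Adgre5 overlap those of Ddx39 on the opposite strand. Adgre1, which encodes the macrophage antigen F4/80, was not called, at 36.1 ± 15.02 CPM in QZ1-hi and 27.7 ± 6.66 CPM in QZ1-lo (SD, n = 4 each) (log2 fold change 0.38, SE 0.28, adjusted p = 0.419, and -0.15 when scaled by library size only). Adgre4 was at 2.06 ± 1.78 CPM (SD, n = 4) and 2.49 ± 1.99 CPM (SD, n = 4). The sums of 6 leukocyte markers overlapped between the populations, at 551 to 1151 CPM in QZ1-hi and 504 to 858 CPM in QZ1-lo, as did those of 6 macrophage markers, at 397 to 1053 and 335 to 726 CPM. These markers were counted in both populations although the gate kept cells without CD45, and their part in the levels of subfamily E was not tested.

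The brain angiogenesis inhibitor genes of subfamily B had little RNA. Adgrb2 was at 2.10 ± 0.88 CPM in QZ1-hi and 0.59 ± 0.42 CPM in QZ1-lo (SD, n = 4 each), without overlap, and was not called (log2 fold change 1.81, SE 0.83, adjusted p = 0.178). Adgrb1, a receptor for phosphatidylserine on dying cells, and Adgrb3 were among the 10 genes left untested, with Adgra1, Adgrf1, Adgrf2, Adgrf3, Adgrf4, Adgrg4, Adgrg5 and Adgrg7. None of the 10 had over 54 counts in all 8 libraries together or over 26 in a single library. Adgrg4 had 0 counts in every library, which at this depth allows up to 0.0894 to 0.179 CPM per library.

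The known ligands and membrane partners of these receptors were read from the same fit. Of 35 listed genes, 26 were tested, 11 rose and 5 fell, with a median log2 fold change of 0.49 over those tested, where 9.88% of all genes tested rose and 8.21% fell. The 11 became 6 without QZ1-hi replicate 1 or QZ1-lo replicate 4, and 7 without QZ1-hi replicate 3 or QZ1-lo replicate 2 or 3. Scaling by library size only gave 6 that rose and 8 that fell. Among the partners of the latrophilins, Flrt2 rose and Flrt3 fell. Flrt2 was at 21.4, 67.4, 15.3 and 20.0 CPM in QZ1-hi and 4.35, 5.70, 6.04 and 2.01 CPM in QZ1-lo (log2 fold change 2.77, SE 0.49, adjusted p = 0.00266), and Flrt3 at 10.8, 6.22, 8.15 and 9.71 CPM against 17.7, 19.5, 15.99 and 15.5 CPM (-0.98, SE 0.20, adjusted p = 0.00549). Both genes separated the populations, in opposite directions. The teneurins were also split, with log2 fold changes of 3.71 (SE 1.15, adjusted p = 0.0448) for Tenm3 and -1.78 (SE 0.40, adjusted p = 0.00959) for Tenm4. Tenm3 had 3, 44, 0 and 0 counts in the QZ1-lo libraries, and QZ1-hi replicate 2 held 251 of its 473 QZ1-hi counts. Tenm1 and Tenm2 had too few counts to be tested. Neurexin 2 (Nrxn2) rose by 1.82 (SE 0.58, adjusted p = 0.0496) on the log2 scale, with overlap between the populations.

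For the matrix ligands, Col3a1, which encodes the collagen III chain bound by ADGRG1, rose from 77.6 ± 60.4 to 892 ± 286 CPM (SD, n = 4 per population), with a log2 fold change of 3.52 (SE 0.62). Its receptor gene Adgrg1 had a log2 fold change of the opposite sign. Lama2, a laminin chain bound by ADGRG6, rose from 2.60 ± 2.19 to 42.2 ± 28.3 CPM (SD, n = 4 each), by 4.02 (SE 0.65) on the log2 scale. Col4a1 and Col4a2, the type IV collagen chains, rose by 0.92 (SE 0.25) and 0.76 (SE 0.22), while Adgrg6 itself fell. The difference between receptor and ligand was not tested.

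Around Adgra2, Reck rose together with the receptor, from 1.61 ± 0.77 to 10.1 ± 4.95 CPM (SD, n = 4 per population), with a log2 fold change of 2.63 (adjusted p = 0.00275, SE 0.47). The WNT ligands of this complex fell. Wnt7a was at 4.28, 5.19, 2.66 and 2.98 CPM in QZ1-hi and 16.01, 11.9, 11.6 and 14.5 CPM in QZ1-lo (log2 fold change -1.83, SE 0.25, adjusted p = 0.000714), and Wnt7b had a log2 fold change of -1.39 (adjusted p = 0.00877, SE 0.31). Plxdc2, a binding partner of ADGRD1, rose from 18.0 ± 3.28 to 72.6 ± 22.7 CPM (SD, n = 4 each), by 2.01 (SE 0.23) on the log2 scale, while Ptk7 was not called. Cd55, the ligand of CD97, fell by 0.65 (SE 0.20) on the log2 scale, with overlap between the populations. Elmo1, which links ADGRB1 to engulfment, rose by 1.02 (SE 0.18), and Thbs1 and Dock1 were not called.

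**Figure D4:**
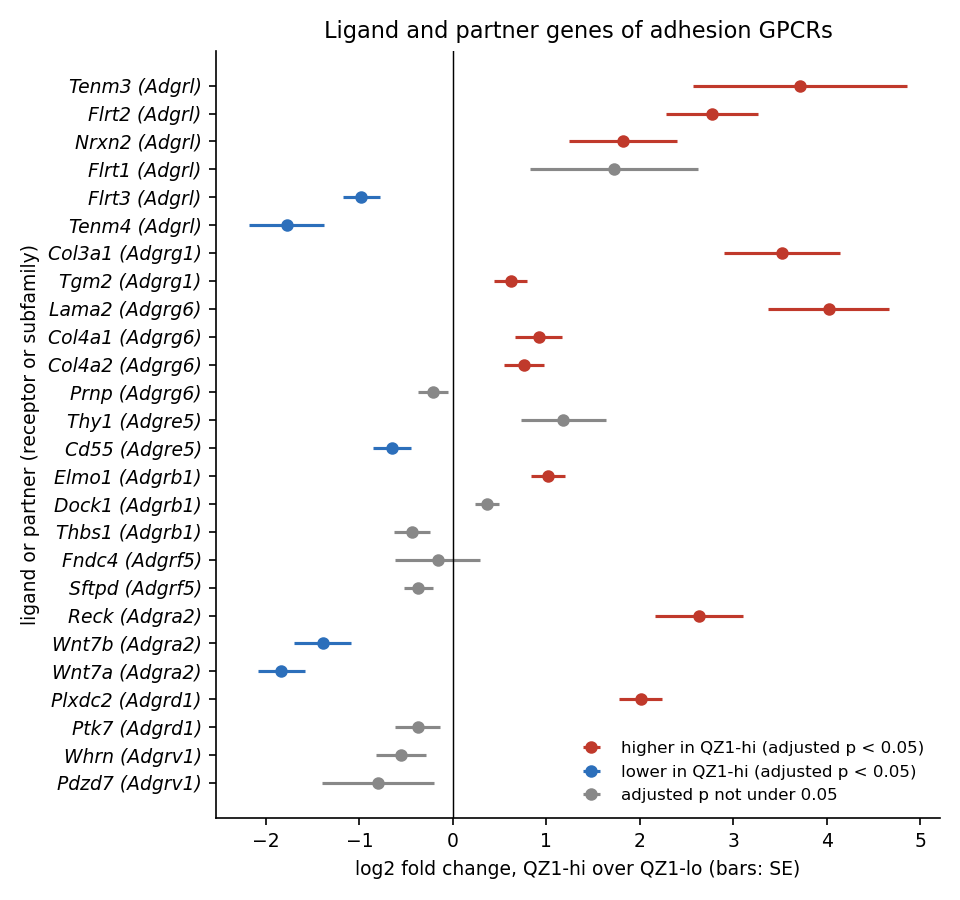
The log2 fold change of QZ1-hi over QZ1-lo, with bars of 1 SE, is plotted for the 26 ligand and partner genes tested, grouped by the receptor or subfamily in parentheses. Lama2 at 4.02 and Tenm3 at 3.71 lie farthest to the right, and Wnt7a at -1.83 and Tenm4 at -1.78 farthest to the left. Tenm3 had only 47 counts over the QZ1-lo libraries.

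Subfamily C keeps the names Celsr1, Celsr2 and Celsr3 in mouse and lies outside the 27 genes. These flamingo cadherins set planar cell polarity. Celsr1 fell, at 63.1, 63.4, 40.3 and 61.2 CPM in QZ1-hi and 114, 102, 102 and 92.4 CPM in QZ1-lo, with a log2 fold change of -0.84 (adjusted p = 0.00310, SE 0.15). Celsr2 (-0.58, SE 0.27) and Celsr3 (0.36, SE 0.84) were not called. With their polarity partners the list held 12 genes, all tested, of which Prickle1 and Prickle2 rose, by 2.96 (SE 0.45) and 1.86 (SE 0.28), and Celsr1 and Dvl3 (-0.53, SE 0.16, adjusted p = 0.0441) fell. These counts of 2 in each direction stand beside 9.88% of all genes tested that rose and 8.21% that fell. The 2 that fell became 1 without QZ1-hi replicate 2 or 4 or any 1 of the QZ1-lo libraries, and 4 when scaled by library size only.

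Of the 15 genes for G alpha subunits and arrestins, through which these receptors signal and are turned off, 4 rose. Over all genes tested, 9.88% rose and 8.21% fell. The 4 became 2 when scaled by library size only or at an adjusted p under 0.01. None of the 15 fell in edgeR, DESeq2 or limma, and 0 fell at an unadjusted p under 0.05 in edgeR. Arrb1 rose from 36.4 ± 4.51 to 94.0 ± 17.0 CPM (SD, n = 4 per population), with a log2 fold change of 1.37 (adjusted p = 0.000289, SE 0.15). Gnao1 rose by 2.54 (SE 0.59) on the log2 scale, from 2.20 ± 2.38 CPM (SD, n = 4). Gnai2 and Gnaq rose by 0.62 (SE 0.11) and 0.55 (SE 0.13) on the log2 scale. Gna12 and Gna13, the subunits that couple many adhesion GPCRs to RhoA, had log2 fold changes of 0.45 (adjusted p = 0.0969, SE 0.17) and 0.00 (adjusted p = 0.992, SE 0.10). Gna13 was at 80.7 ± 4.797 CPM in QZ1-hi and 80.6 ± 3.14 CPM in QZ1-lo (SD, n = 4 each).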

How the data were processed

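The authors sorted the cells, prepared stranded total RNA with a SMARTer kit, and used Rsubread for counting. What they deposited is a table of raw counts by Entrez Gene identifier, without normalization. The labels name the build mm10 and DESeq2, and the aligner, annotation and strand setting are not given in the sources used here. The design text calls the 4 libraries of each population biological replicates. Symbols were given to 25293 of 27179 identifiers from RefSeq and GENCODE M21, both on GRCm38, whose chromosomes are those of mm10, and coordinates are RefSeq gene bounds on GRCm38.p6. Of the 11 called genes, 8 were in the RefSeq promoter table and 6 had a single listed start.

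The fit was made with edgeR 4.0.16 in R 4.3.3 (TMM, filterByExpr with a minimum count of 10 and total of 15, quasi-likelihood test between the populations, Benjamini-Hochberg adjustment over 15583 genes, threshold 0.05). SEs were taken from the log2 fold change and its F statistic. Log2 ratios of 2 genes used a prior count of 2 and two-sided exact permutation tests over 70 assignments, adjusted over 16 pairs. The procedure was tested on simulated data. Alternatives were DESeq2 1.42.0, limma 3.58.1 (voom with quality weights), other scalings, filters and dispersions, and each library left out. The members and lists were chosen with earlier results of these data known. Named genes are the family members, called ones with the value in each library, and genes of the fixed lists.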

Additional observations from a re-analysis of the deposited data

Results flagged for a closer look

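In 5 of 34 groups of 4 libraries, 1 library lay farther from the rest of its population than Dixon's test allows at the 95% level, where chance marks about 1 in 20 groups. Adgrl4 was at 18.6 CPM in QZ1-lo replicate 3, above 3.64 to 5.33 CPM elsewhere in QZ1-lo, and Adgra3 in the same library was at 24.7 CPM, above 13.3 to 13.7 CPM. This library had the highest QZ1-lo sum for the endothelial markers, 307 CPM against 137 CPM in the next. It was also highest for the fibroblast, pericyte, smooth muscle, lymphatic, epithelial, alveolar type 2 and ciliated markers. Its fibroblast and smooth muscle sums nearly equalled those of QZ1-lo replicate 2. Adgre4 was at 4.71 CPM and Adgrg6 at 12.0 CPM in QZ1-hi replicate 4, where the other QZ1-hi libraries held 0.93 to 1.48 and 20.6 to 22.3 CPM. The sums of the macrophage, leukocyte and neutrophil markers in that library, 1053, 1151 and 256 CPM, were the highest of all 8. Its sum of the epithelial markers, 490 CPM, was the lowest of all 8. Among the QZ1-hi libraries it also had the lowest sums of the endothelial, fibroblast, pericyte, smooth muscle, alveolar type 1 and alveolar type 2 markers. Adgrb2 was at 3.41 CPM in QZ1-hi replicate 2, above 1.49 to 1.79 CPM in the other QZ1-hi libraries. The part of these cell markers in the values that stood apart was not tested.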

How the results depend on the processing

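No paired analysis was possible because the sources do not say which libraries share a mouse. The 9 risers numbered 6 to 10 over the alternatives, and 8 at an adjusted p under 0.01, where 0 genes fell. With at least 10 counts in every library, 7 rose, since Adgrd1 and Adgrg2 then went untested. Leaving out a library gave 9 to 10 that rose and 0 to 2 that fell, with 0 without QZ1-lo replicate 2 and 1 without QZ1-hi replicate 2 or 3 or QZ1-lo replicate 1 or 3. Scaling by library size only gave 6 higher and 8 lower ligand and partner genes, 4 lower polarity genes and 2 higher G alpha and arrestin genes, and a log2 fold change of -0.15 for Adgre1. An adjusted p under 0.01 gave 6 higher ligand and partner genes, 1 lower polarity gene and 2 higher G alpha and arrestin genes, and no filter on low counts gave 1 lower polarity gene. Leaving out a library gave 6 to 10 higher ligand and partner genes (6 without QZ1-hi replicate 1 or QZ1-lo replicate 4, and 7 without QZ1-hi replicate 3 or QZ1-lo replicate 2 or 3) and 1 to 3 lower polarity genes (1 without QZ1-hi replicate 2 or 4 or any 1 of the QZ1-lo libraries). Adgre4 ranged from -1.05 to 0.40, the latter without QZ1-lo replicate 2. Adgrg1 passed the threshold in 9 of 16 alternatives, and Adgra3 in 4, among them DESeq2, limma and the fit without QZ1-lo replicate 3. With a prior count of 0.5, 10 pairs passed an adjusted p of 0.05, since 10 pairs in place of 9 did not overlap and shared the smallest p. The causes of the other changes were not tested beyond the genes and libraries dropped. Low counts limit Adgrg2, Adgrv1 and the 10 untested genes.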
